A study of Xenopus laevis with 4 samples.

Results

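The genes described here are 10 genes of insulin signalling and its FoxO branch. They are 2 receptors (insr, igf1r), 2 adaptors (irs1, irs2), 3 FoxO transcription factors (foxo1, foxo3, foxo4) and 3 further genes (sesn1, fbxo32, klf15). In other vertebrates those 3 are known as targets of FoxO or of insulin signalling. The 10 genes were searched for by symbol in the platform annotation, ignoring the suffixes .L and .S. These suffixes tell apart the homeologs of this allotetraploid frog. The symbols were selected on earlier results for the log2 difference between SP600125 and control arrays in these data, so the values below describe that difference and are no test of it. Of the 10 genes, 7 had a probe set: insr.L, igf1r.S, irs1.L, foxo1.L, foxo3.L, sesn1.L and klf15.S, with 13 of the 16745 probe sets tested in all. No probe set carried the symbol foxo4, irs2 or fbxo32, so these 3 genes were not analysed here. Only 1 copy of each of the other 7 was covered, which for irs1 is the only copy in the RefSeq gene table.

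Expression was measured on Affymetrix arrays in total RNA of whole embryonic skins of Xenopus laevis, taken at stage 24 from embryos kept at 15 °C. Of the 4 arrays, 2 came from embryos exposed to SP600125, which inhibits c-Jun N-terminal kinases (JNK) by competing with ATP, from stage 14 to stage 24, and 2 from control embryos labelled as receiving no treatment, with no vehicle named. The dose is labelled 100 mM, a unit that these data cannot check and that may be a slip. Each sample pooled 20 skins. Whether samples came from different clutches is not in the labels, so any spread given here may be technical.

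Insulin and the insulin-like growth factors bind receptor tyrosine kinases, which phosphorylate the IRS adaptors and through them switch on PI3-kinase and AKT. In mammals and in invertebrates AKT phosphorylates FoxO factors and keeps them out of the nucleus. When the signal is low, FoxO factors enter the nucleus and activate genes of gluconeogenesis, autophagy, cell cycle arrest and stress resistance. JNK has been described in flies, worms and mammalian cells as a kinase that promotes the nuclear entry of FoxO. A transcript level measures neither the phosphorylation nor the localisation of these proteins, so the activity of the pathway was not measured here.

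All levels are RMA log2 values, in which a difference of 1 is a doubling. They can be compared between arrays for the same probe set and not between probe sets. With limma, and p-values adjusted over all 16745 probe sets by the Benjamini-Hochberg method, 0 passed at an adjusted p under 0.05 (0% higher and 0% lower), and 269 (1.61%) had an unadjusted p under 0.05, so none of the 13 probe sets passed. Both SP600125 arrays lay above both controls for 11.9% of all probe sets and below both for 9.25%. The number in the sample titles took up 62.7% of the sum of squares over all probe sets and treatment 20.8%. Of all 11295 genes, each given by its brightest probe set, 5186 had lower and 6107 higher means after SP600125. Among markers of other tissues, 50 of 62 muscle and somite genes had lower means. Their summed linear level was 10358.5 and 12163 in the SP600125 arrays, against 19853 and 15698 in the controls. Of 42 endoderm, notochord, blood and kidney genes 32 had lower means, with sums of 3385 and 4190 in the SP600125 arrays, against 5989 and 7220 in the controls. The neural and neural crest list had lower means for 30 of 43 genes, with sums of 8804 and 8540 in the SP600125 arrays, against 13813 and 7622 in the controls. Only 5 of the 43 lay below both controls, and 2 above. The median difference of this list was −0.81 between arrays numbered 1 and 0.12 between arrays numbered 2. The epidermal gene itln1.L, an intelectin secreted by the embryonic skin, read 14.21 and 14.22 after SP600125, against 14.15 and 14.22 in controls. These levels are close to the highest value in the data, 14.26, and 1 gene does not measure the make-up of the tissue. Of the 31 epidermal genes 24 had higher means after SP600125, with sums of 139275 and 142090 in the SP600125 arrays, against 132601 and 132257 in the controls. RMA gives no value of 0, and 30 of the 62 muscle genes were dim, with a mean log2 level under 5. What part these tissues had in the results below was not tested, and in pooled tissue fewer cells of a type and less RNA per cell cannot be told apart.

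Of the 7 genes, sesn1.L and klf15.S stood higher in skins of SP600125-treated embryos, and the receptors, the adaptor and the FoxO genes did not separate the groups by more than the spread between arrays. Both probe sets of sesn1.L had means at least 2-fold higher, and klf15.S was 1.90-fold higher by its single, dim probe set. In all, 4 of the 13 probe sets had both SP600125 arrays above both controls, 0 had both below, and 9 overlapped. Over all 16745 probe sets the shares above and below were 11.9% and 9.25%. The 4 above both controls were both probe sets of sesn1.L and those of klf15.S and insr.L, and insr.L differed by only 0.08. The median log2 difference, SP600125 minus control, over the 7 genes was 0.08, against 0.02 over all 11295 genes, with each gene given by its brightest probe set.

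**Figure D1:**
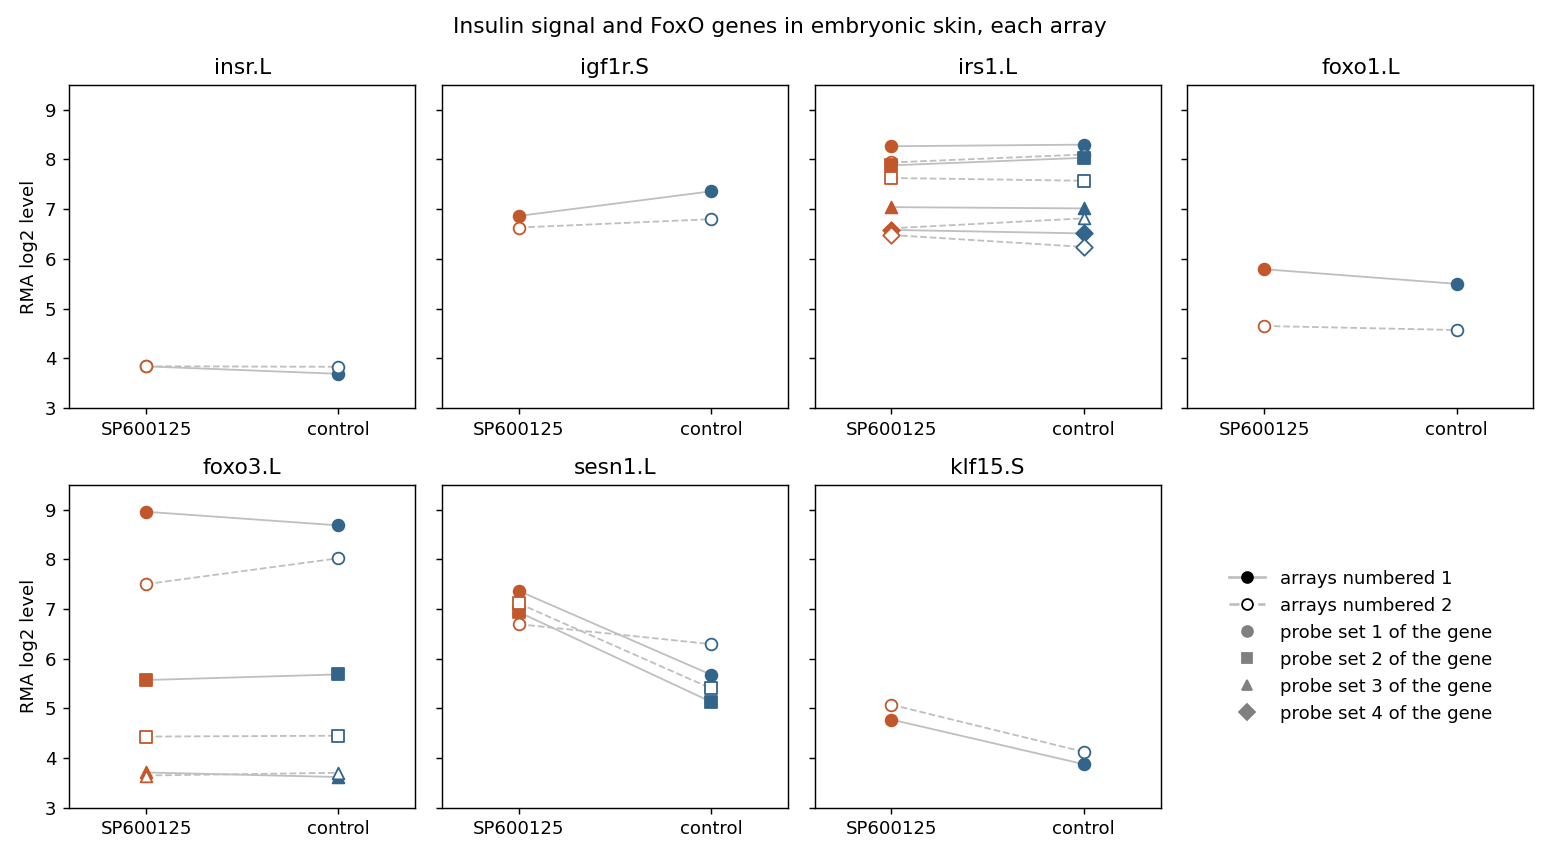
RMA log2 level (vertical axis) of each probe set of the 7 measured genes in the 2 SP600125 arrays (orange) and the 2 control arrays (blue), with 1 symbol per probe set, filled for arrays numbered 1 and open for arrays numbered 2, and lines that join arrays of the same number. The SP600125 values of sesn1.L and klf15.S lie above those of the controls for the same probe set, while the values of foxo1.L and of the brighter probe sets of foxo3.L split by array number.

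Sestrin 1, encoded by sesn1, restrains the growth kinase complex mTORC1 under stress and is known in mammals as a target of both p53 and FoxO. The gene sesn1.L had 2 probe sets. Xl2.56039.1.S1_at, called set 2 in the plots, read 6.94 and 7.11 in the SP600125 arrays, against 5.13 and 5.40 in the controls. The 2 treated arrays were close to each other, and the lower of them stood 1.54 above the higher control. The log2 difference was 1.76 ± 0.22 (SE of the fit, n = 2 per group), a 3.38-fold higher mean, which ranked 19 from the top among the 16745 probe sets. Between arrays of the same number it was 1.81 for number 1 and 1.71 for number 2.

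The other probe set of sesn1.L, Xl2.79.1.S1_at or set 1, was the brighter of the pair. It read 7.36 and 6.69 in the SP600125 arrays, against 5.68 and 6.29 in the controls. The groups did not overlap, but the gap shrank to 0.40 between SP600125 replicate 2 and control replicate 2. The difference was 1.04 ± 0.37, with 1.69 for arrays numbered 1 and 0.40 for arrays numbered 2, so the probe sets gave the same direction and different sizes. With each array left out in turn set 1 ranged from 0.71 to 1.38 and set 2 from 1.62 to 1.89. Neither is known to be free of signal from the copy sesn1.S, which had no probe set of its own.

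The other measured sestrin genes, sesn2.L, sesn2.S and sesn3.L, also had both SP600125 arrays above both controls, as had 11.9% of all probe sets. The 3 probe sets of sesn3.L read the same copy and are not separate genes. The level of sesn2.L, a sestrin induced by the integrated stress response in mammals, was 7.66 and 8.02 in the SP600125 arrays, against 7.24 and 7.34 in the controls. The copy sesn2.S read 7.37 and 8.26 in treated skins, against 6.99 and 7.31 in control skins, a gap of 0.06 between the nearest arrays. The difference was 0.55 ± 0.23 for sesn2.L and 0.66 ± 0.38 for sesn2.S. For the brightest probe set of sesn3.L, a FoxO target in mammals, the levels were 7.21 and 6.48 in the SP600125 arrays, against 6.23 and 6.45 in the controls. The difference of 0.51 ± 0.33 was 0.98 between arrays numbered 1 and only 0.03 between arrays numbered 2, and its other probe sets differed by 0.02 between arrays numbered 2.

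In the RefSeq gene table of the assembly Xenopus_laevis_v10.1, whose positions were used here for gene order only, sesn1.L and foxo3.L stand with a single gene, armc2.L, between them. Their probe sets differed in pattern: those of foxo3.L had differences between −0.12 and 0.02, while those of sesn1.L were 1.04 and 1.76. The nearest measured genes on either side of the pair, cep57l1.L and snx3.L, differed by 0.44 and 0.31.

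KLF15 is a zinc finger transcription factor that in mammals responds to fasting and glucocorticoids and drives amino acid breakdown and gluconeogenesis. The single probe set of klf15.S, Xl2.34940.1.S1_at, read 4.77 and 5.07 in the SP600125 arrays, against 3.87 and 4.12 in the controls. Both treated arrays lay above both controls, and the nearest pair was 0.65 apart. The difference was 0.92 ± 0.23, with 0.90 within number 1 and 0.95 within number 2, and 0.77 to 1.07 with each array left out. The probe set was dim: its mean of 4.46 is exceeded by 78.4% of the probe sets on the array. RMA compresses differences at that level, and no second probe set was there to check the size. The difference of klf15.S ranked 120 from the top among the 16745 probe sets.

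Of 11 measured genes of the KLF family, klf15 not counted and 3 of them dim, 0 lay above and 0 below both controls. Over all genes 12.3% lay above and 9.1% below, so counts among 11 genes do not set klf15.S apart from its family. The differences of the 11 ran from −0.46 to 0.32 around a median of 0.00. That median ranged from −0.20 to 0.15 with each array left out.

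The insulin receptor and the type 1 receptor for insulin-like growth factors are the entry points of the pathway. The only probe set of insr.L was dim, at 3.84 and 3.84 in the SP600125 arrays, against 3.69 and 3.83 in the controls. Both treated arrays were above both controls, by as little as 0.01, and the difference of 0.08 ± 0.19 is smaller than its error. For igf1r.S the levels were 6.86 and 6.63 in the SP600125 arrays, against 7.36 and 6.80 in the controls. SP600125 replicate 1 lay between the controls, so the groups overlapped, and the difference was −0.33 ± 0.28. It was −0.49 between arrays numbered 1 and −0.17 between arrays numbered 2, and it shrank to −0.05 without control replicate 1.

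IRS1 is the adaptor that couples both receptors to PI3-kinase. Its gene irs1.L had 4 probe sets, which come from 2 source sequences with 2 probe sets each, and so are not independent readings. The brightest of them read 8.27 and 7.94 in the SP600125 arrays, against 8.30 and 8.10 in the controls. Its difference of −0.10 ± 0.23 lay within the spread of the arrays. The other 3 differed by −0.05 ± 0.26, −0.09 ± 0.25 and 0.15 ± 0.21, and the groups overlapped in all 4. The sign of 3 of them turned with single arrays left out, and the fourth, at 0.15, ranged from 0.02 to 0.29. Over these probe sets the differences between single treated and control arrays ran from −0.41 to 0.34.

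The symbol irs2 was not on the array, and the RefSeq table holds irs2.L as a gene of its own. That table also lists irs2 as an older name of irs4.L and irs4.S, which had 3 probe sets. These are given here as separate genes and not as readings of irs2.L. The level of irs4.L was 9.54 and 8.16 in the SP600125 arrays, against 8.93 and 8.26 in the controls. The brighter probe set of irs4.S read 7.76 and 5.77 in treated skins, against 6.81 and 5.73 in control skins. The treated arrays enclosed both controls for irs4.L and 1 of them for irs4.S, and the arrays numbered 2 were lower than those numbered 1 by 1.02 and 1.53. The differences by treatment were 0.26 ± 0.57 and 0.49 ± 0.81.

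FoxO1 and FoxO3 are forkhead transcription factors, and in mammals each can activate the transcription of FoxO genes. The single probe set of foxo1.L read 5.79 and 4.65 in the SP600125 arrays, against 5.497 and 4.568 in the controls. The groups overlapped, because both arrays numbered 1 were higher than both numbered 2, and the difference was 0.19 ± 0.55. It was −0.38 without SP600125 replicate 1, −0.28 without control replicate 2, 0.76 without SP600125 replicate 2 and 0.65 without control replicate 1. Within numbers 1 and 2 it was 0.29 and 0.08.

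Of the 3 probe sets of foxo3.L, the brightest read 8.96 and 7.50 in the SP600125 arrays, against 8.68 and 8.02 in the controls. The treated arrays enclosed both controls, with a difference of −0.12 ± 0.59. The next read 5.57 and 4.43 in treated skins, against 5.68 and 4.45 in control skins, a difference of −0.07 ± 0.61. The third was dim, between 3.62 and 3.71 in all 4 arrays, with a difference of 0.02 ± 0.19. Its sign turned after a second normalization. Without single arrays the sign turned for all 3, with a range of −0.85 to 0.61 for the brightest.

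The FoxO genes split by the number in the sample titles. Arrays numbered 2 minus arrays numbered 1 gave −1.04 for foxo1.L, and −1.06 and −1.19 for the brighter probe sets of foxo3.L. For sesn1.L the same difference was −0.03 and 0.22, and for klf15.S 0.27. Of the 13 probe sets, 8 had both arrays numbered 2 below both numbered 1, and 0 had both above. Over all probe sets these shares were 25.8% and 33.2%. What the number stands for is not given in the labels.

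**Figure D2:**
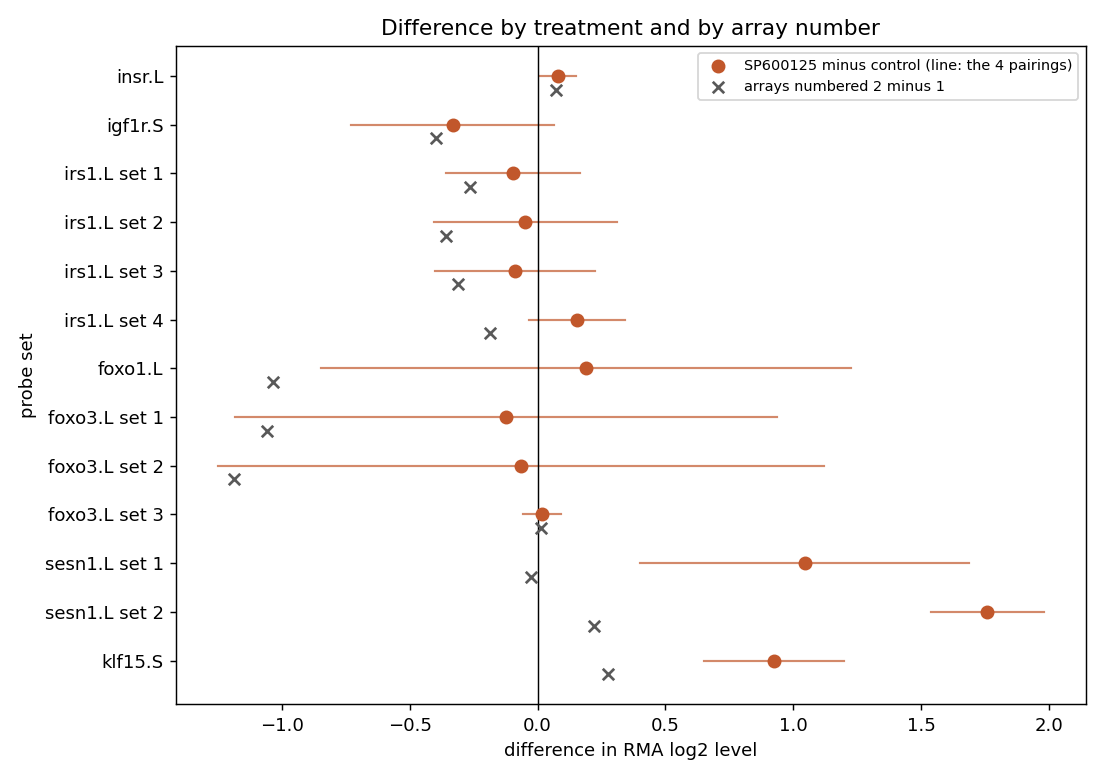
Difference in RMA log2 level (horizontal axis) of each of the 13 probe sets, as SP600125 minus control (orange points, with a line from the lowest to the highest of the 4 differences between a treated and a control array) and as arrays numbered 2 minus arrays numbered 1 (grey crosses). The lines of sesn1.L and klf15.S lie wholly above 0, those of foxo1.L and the brighter foxo3.L probe sets cross it, and the crosses of those 3 lie between −1.19 and −1.04.

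**Figure D3:**
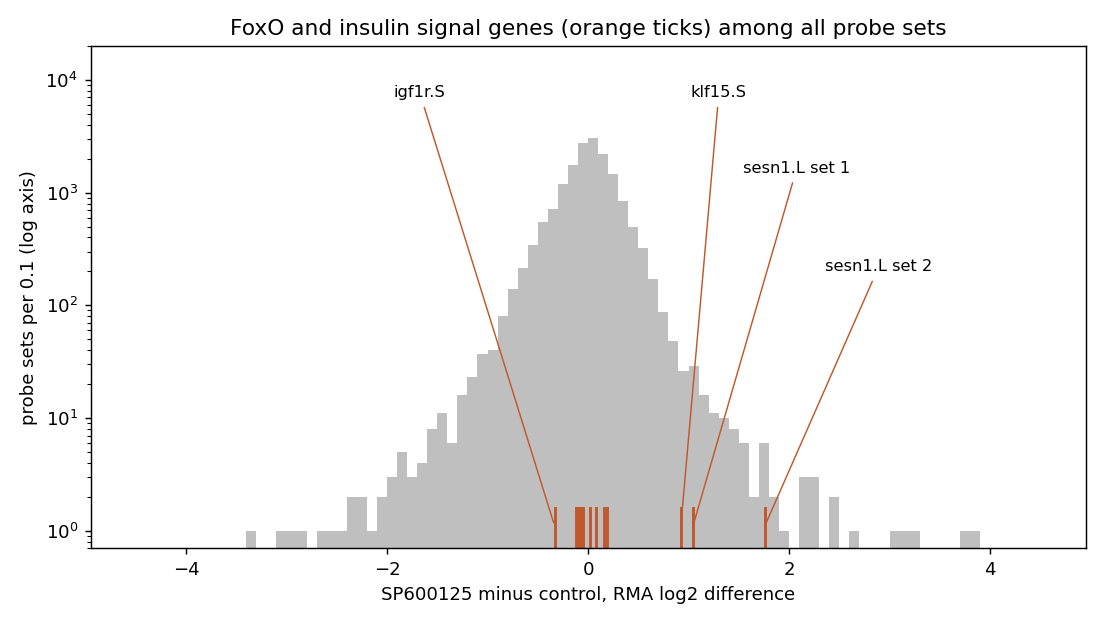
Number of probe sets (vertical log axis, per 0.1) by their log2 difference, SP600125 minus control (horizontal axis), for all 16745 probe sets, with orange ticks for the 13 probe sets of FoxO and insulin signal genes. The ticks of sesn1.L at 1.76 and 1.04 and of klf15.S at 0.92 stand in the upper tail, and the other 10 lie between −0.33 and 0.19.

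Around these genes, the rest of the pathway was read from gene lists, each gene by its brightest probe set. By the limma test 0 genes of any list passed, and 12.3% of all genes had both SP600125 arrays above both controls and 9.1% both below. Of 10 ligand and binding protein genes 3 lay above and 1 below. The insulin-like growth factor gene igf3.L read 10.09 and 8.89 in the SP600125 arrays, against 8.53 and 8.40 in the controls, a difference of 1.03 ± 0.46, and its other probe set differed by 1.14 ± 0.34. In both probe sets the SP600125 replicate 1 array was highest. The gene of the binding protein igfbp5.L differed by 0.31 ± 0.22. The insulin genes ins.L and ins.S, igf2.L and igf2.S, and both copies of igfbp1, a hepatic FoxO target in mammals, were dim, and igfbp1.L differed by 0.18 ± 0.23. The acid-labile subunit igfals.L, also dim, differed by −0.28 ± 0.22 and the protease gene htra1.S by 0.10 ± 0.19.

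Receptor-proximal adaptors and inhibitors were spread around 0, with 1 of 30 genes above and 2 below both controls and a median of −0.02. The 3 were dim: the cytokine signalling suppressors socs1.L and socs2.S differed by 0.24 ± 0.20 and −0.24 ± 0.20, and the receptor insrr.L by −0.04 ± 0.19.

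In the PI3-kinase and AKT list 4 of 26 genes lay above and 3 below, with a median of 0.04. The regulatory subunit gene pik3r1.S read 6.47 and 6.63 in the SP600125 arrays, against 5.896 and 6.004 in the controls. Its difference was 0.60 ± 0.20 and of similar size in both array numbers, at 0.57 and 0.62, while the copy pik3r1.L differed by 0.28 ± 0.24 with groups that overlapped. The kinase gene sgk1.L, whose product phosphorylates FoxO3 in mammals, was at 8.65 and 8.98 in treated skins, against 7.36 and 8.51 in control skins. Control replicate 1 was the low array, and the difference of 0.88 ± 0.46 was 1.29 between arrays numbered 1 and 0.46 between arrays numbered 2. The kinase gene pdpk1.L, which activates AKT, differed by 0.34 ± 0.24 and was dim. The Rab regulator tbc1d4.L, a substrate of AKT, differed by −0.38 ± 0.21. The AKT genes akt1.S, akt2.L and akt2.S differed by 0.05, 0.12 and −0.07, with overlapping groups.

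Of 30 genes of the mTOR branch, sesn2 and sesn3 included, 8 lay above and 1 below, with a median of 0.23, and 0.10 to 0.36 with each array left out. The mTORC1 inhibitor gene ddit4.S read 9.85 and 10.02 in the SP600125 arrays, against 9.34 and 9.27 in the controls, a difference of 0.63 ± 0.20. The lysosomal scaffold gene lamtor3.L differed by 0.78 ± 0.39 and the ribosomal protein gene rps6.L by 0.67 ± 0.24. The 1 gene below, rps6kb1.L, encodes the kinase of that ribosomal protein and differed by −0.40 ± 0.23.

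FoxO partners and regulators had 4 of 55 genes above and 8 below, with a median of −0.02. The largest differences among those 12 were those of prkag3.S, a dim subunit gene of the AMP-activated kinase, at −0.62 ± 0.31, and of beta-catenin, ctnnb1.L, at −0.47 ± 0.25. Their other probe sets did not separate the groups, at −0.08 for prkag3.S and −0.43 and −0.14 for ctnnb1.L. The copy ctnnb1.S, by its brightest probe set, also lay below both controls, at −0.20 ± 0.21. The YWHA adaptor gene ywhah.L, of the family that holds phosphorylated FoxO in the cytoplasm, read 9.93 and 9.92 in the SP600125 arrays, against 10.23 and 10.33 in the controls. Its relatives ywhaq.S and ywhaz.S lay above both controls, at 0.18 ± 0.19 and 0.18 ± 0.21. For the other YWHA genes in the list the groups overlapped, so the family did not move in a single direction. The gene mst1.L differed by −0.37 ± 0.23. It stands in the list by its symbol, but encodes a macrophage-stimulating protein and not the FoxO kinase of the same abbreviation.

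Of 72 genes known in other vertebrates as FoxO targets, the longest of the pathway lists, 21 lay above both controls, 29.2%, and 4 below, with a median of 0.12. The L and S copies were counted separately, so the 72 stand for 53 symbols. Genes that FoxO activates and genes that it represses, such as those of D-type cyclins, are pooled here. The counts and the median therefore have no single direction to be read against. The list was written with the values of pck1, g6pc1, pdk4 and gabarapl1 known. Without those 11 genes, 13 of 61 lay above and 4 below, with a median of 0.10. Other results of these data were also known when the list was written, so the remaining genes are not free of that choice. Among the 13, ddit4.S and sesn3.L were also counted above in the mTOR branch. The gluconeogenic genes pck1.L and pck1.S differed by 3.13 ± 0.87 and 3.83 ± 0.82, and the pyruvate dehydrogenase kinase genes pdk4.L and pdk4.S by 1.11 ± 0.28 and 1.86 ± 0.41. Within numbers 1 and 2 the treatment difference was 4.17 and 2.09 for pck1.L, and 5.44 and 2.22 for pck1.S. Of 5 measured g6pc1 genes, g6pc1.3.L differed by 3.79 ± 0.83 and the dim g6pc1.1.L by 1.47 ± 0.22, while the groups overlapped for g6pc1.2.L at 0.21, g6pc1.2.S at 0.02 and g6pc1.1.S at −0.03.

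Further genes of the target list are given here by name after their values were seen. The cyclin G2 gene ccng2.S, whose product is linked to cell cycle arrest, read 8.90 and 9.88 in the SP600125 arrays, against 8.49 and 8.13 in the controls. Its copy ccng2.L was at 9.15 and 9.54 in treated skins, against 8.78 and 8.91 in control skins. The repressor gene bcl6.L differed by 0.98 ± 0.33 and its copy bcl6.S by 0.32 ± 0.31. The gene hbp1.S, for a repressor of cell cycle genes, differed by 0.87 ± 0.45 and hbp1.L by 0.76 ± 0.23. The autophagy gene gabarapl1.S was at 7.33 and 7.52 in treated skins, against 6.02 and 5.94 in control skins, while gabarapl1.L was dim in all arrays. Among the 4 below were 3 of 5 measured genes of D-type cyclins: ccnd1.L differed by −0.44 ± 0.26, ccnd1.S by −0.59 ± 0.23 and ccnd2.S by −0.65 ± 0.28. Within numbers 1 and 2 the differences were −0.80 and −0.08 for ccnd1.L, −0.80 and −0.39 for ccnd1.S, and −0.33 and −0.98 for ccnd2.S. In mammals FoxO represses D-type cyclins, but whether FoxO had a part in these differences was not tested. The groups overlapped for ccnd2.L and for the gene listed as ccnd2 with no suffix, at −0.22 ± 0.23 and 0.01 ± 0.20. The fourth was trim63.S, a muscle ubiquitin ligase gene and dim, at −0.06 ± 0.19. Groups overlapped for many known targets, including cdkn1b.S, bcl2l11.L, sod2.S, txnip.L and gadd45a.S, with differences of 0.04, 0.02, 0.36, −0.35 and 0.50.

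**Figure D4:**
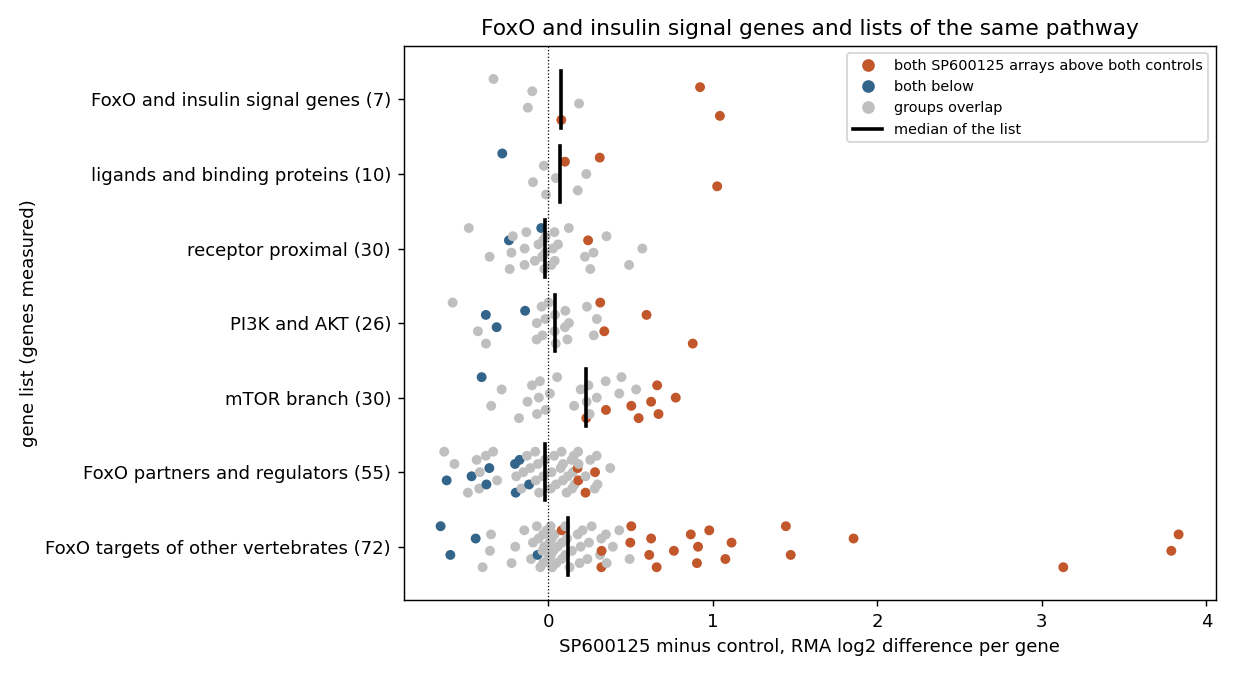
Log2 difference, SP600125 minus control (horizontal axis), of each gene of 7 lists (rows, with the number of genes measured), in orange where both SP600125 arrays lay above both controls, blue where both lay below and grey where the groups overlapped, with black bars for the medians. The FoxO target row reaches 3.83 with 21 of 72 genes in orange, and the medians of the other rows lie between −0.02 and 0.23.

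The 3 genes of this set whose groups did not overlap were also set against all other named probe sets by the shape of their profile, as the root mean square distance between values centred on each probe set's mean over the 4 arrays. For the brighter probe set of sesn1.L the nearest of 15432 were cryba4.S, oxct1.L and aifm2.S, at distances of 0.0904, 0.117 and 0.127 log2 units, with differences by treatment of 0.91, 0.85 and 0.92. Nearest to klf15.S were mknk2.S, dapl1.L and ccng1.S, at 0.0659, 0.0878 and 0.0886, with differences of 0.87, 1.09 and 0.79. For the nearly flat insr.L they were spock2.S, MGC83480 and thrap3, at 0.0066, 0.0069 and 0.0083. With 4 arrays such a likeness is a description only.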

How the data were processed

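The deposited values are log2 levels, 1 per probe set and array, which the authors made with affy and RMA, per the submitters' processing notes, without versions. RMA corrects background, equalises the arrays' distributions and summarises the probes of a set. Its options, the probe definition and any filter were not given in the sources used here. Precision is limited throughout by the number of arrays.

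From 16755 probe sets, 10 controls were removed. Of the other 16745, GEO's platform annotation, possibly outdated, gave 15445 a single gene symbol, 279 several (left unnamed) and 1021 no symbol. The identifiers of all 13 probe sets described were found in the RefSeq gene table.

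Groups and numbers came from the sample titles. Treatment was tested over all probe sets in limma 3.58.1 under R 4.3.3. The fit had 2 residual and 2.10 prior degrees of freedom. Tests were two-sided, with Benjamini-Hochberg adjustment and an adjusted p under 0.05. Every SE is that of this fit unless a block is named, so it includes the difference by array number. The fit's estimates of the difference were checked on simulated arrays with independent noise and no difference by array number. That check does not cover the SEs in these data. A gene was represented by its probe set with the highest mean, and a mean under 5 was called dim. Figures were drawn with matplotlib 3.10.9.

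The genes, lists and tests were chosen with earlier results of these data known. Named by rule were every probe set of the 10 symbols, the 3 nearest profiles of up to 3 genes, and pck1, g6pc1 and pdk4. From each pathway list the rule took up to 4 genes with the largest differences among those whose groups did not overlap. Other genes were named outside this rule, among them copies and relatives of named genes, irs4, itln1.L, and the insulin, igf2, igfbp1 and AKT genes. So were further FoxO targets, which were picked after their values were seen. Alternatives were the array number as a block, removal of dim probe sets, a second cyclic loess or quantile normalization, another prior variance, an adjusted p under 0.1, averaging the probe sets of each gene, and each array left out, where the spread of a lone array is assumed equal to that of the other group.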

Additional observations from a re-analysis of the deposited data

How the results depend on the processing

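With limma 0 probe sets passed in the 11 settings run, with 269 at an unadjusted p under 0.05 in the reported fit. That count was 158 with dim probe sets left out, 516 without SP600125 replicate 1, 297 without SP600125 replicate 2, 149 without control replicate 1 and 430 without control replicate 2. With the array number as a replicate block 0 passed and the unadjusted count was 1063. Deviations of same-numbered arrays correlated at 0.585 over probe sets, but with 2 pairs and no label this does not establish a pairing. Leaving out single arrays moved the median over the 7 genes from 0.08 to between −0.26 and 0.61, and leaving out dim probe sets gave −0.10. The number of the 13 probe sets whose groups did not overlap was 4 as reported, and 2 with dim probe sets left out, which removes insr.L and klf15.S. It was 5 after either second normalization, where a probe set of irs1.L was added. In the reported values 21.2% of all probe sets did not overlap. That share is not given here for the other settings, so the changes in count are no result about these genes. With single arrays left out 6 of 13 probe sets kept their sign: those of sesn1.L, klf15.S, igf1r.S and insr.L, and 1 of irs1.L. Leaving out a single array also leaves the array numbers unbalanced between the groups. A difference by number, as in foxo1.L and the brighter probe sets of foxo3.L, then enters the difference by treatment. The medians of the pathway lists without single arrays were chosen for a look after the data were seen, and for the FoxO targets they ran from 0.10 to 0.16. With 2 arrays per group, differences of the size seen for the receptors, irs1.L and the FoxO genes could not be told from that fit's spread. In the reported fit the spread includes the difference by array number. With the number as a block the SE was 0.17 for foxo1.L and 0.18 for igf1r.S. For the probe sets of foxo3.L, from brightest to dimmest, it was 0.26, 0.16 and 0.16. These SEs rest on fewer residual degrees of freedom, and whether the arrays are paired is not known.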

Other observations

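Genes near KLF15 in amino acid breakdown and glucocorticoid response had 5 of 23 members above both controls and 1 below. Over all genes these shares were 12.3% and 9.1%. The median of the list was 0.27, and 0.04 to 0.50 with each array left out. The glucocorticoid-induced gene tsc22d3.L read 7.51 and 7.81 in the SP600125 arrays, against 6.24 and 7.04 in the controls, and its copy tsc22d3.S differed by 0.63 ± 0.37. The serine dehydratase gene sds.L, an enzyme that turns serine into pyruvate, read 9.77 and 9.64 in treated skins, against 7.98 and 9.40 in control skins. Its difference of 1.01 ± 0.53 was 1.79 between arrays numbered 1 and 0.24 between arrays numbered 2. The mineralocorticoid receptor gene nr3c2.L differed by 0.33 ± 0.23. The median of the list was 0.52 within number 1 and −0.04 within number 2.

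Muscle atrophy genes, in whose company fbxo32 is known in mammals, had 0 of 13 members above and 3 below, with a median of −0.03. The ubiquitin ligase genes traf6.S and trim54.S differed by −0.49 ± 0.22 and −0.29 ± 0.24, beside the lower muscle list described above, whose part in this was not tested. Multiciliated cell genes had 6 of 26 above and 2 below, with a median of 0.07. Ionocyte genes had 6 of 12 above and 2 below, with a median of 0.22. All counts in this paragraph stand beside 12.3% above and 9.1% below over all genes.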
